A study of Mus with 4 samples.

Results

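Pseudouridine (Ψ) was examined in the predicted non-coding RNA genes of the mouse that carry no family name, only a symbol of Gm followed by digits. Members were all rows of the deposited site table with such a symbol and a non-coding RefSeq transcript (NR or XR identifier). The rule left out 10 genes, Gm26917, Gm46178, Gm15564, Gm53756, Gm22009, Gm25395, Gm23547, Gm23946, Gm24119 and Gm25835. It is written in symbols and identifiers only, but was set with earlier results of these data known. Sites per gene, depth and replicate spread may therefore reflect which genes were left out. The rule gave 237 of the 755 sites and 167 of the 465 genes. Of these sites, 229 lay in XR and 8 in NR transcripts.

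Both replicates were cochlear tissue of mice with the genotype Otof c.1315 C > T, which places a stop codon at codon 439 of otoferlin, which inner hair cells need for transmitter release. Neither had received RESTART v3, the treatment of the study, which combines a guide snoRNA with an isoform of DKC1 and an added tRNA. The treated samples were not analysed here. The labels give no age and do not say whether the replicates were separate animals, so the spread between them may be technical. Each replicate consisted of a chemistry library and a control library, and no expression values were at hand to check the tissue label against marker genes.

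Ψ is an isomer of uridine that stacks better on its neighbours and stabilises RNA structure. Small nuclear RNAs (snRNAs), the RNA cores of the spliceosome, carry Ψ at fixed positions, made either by stand-alone enzymes or by H/ACA particles whose guide RNA pairs with the target. H/ACA guides belong to the small nucleolar RNAs (snoRNAs), which in mammals are mostly cut out of the introns of host genes, or to the related guides of the Cajal body (RefSeq class guide_RNA). The mouse genome also holds many scattered copies of snRNA genes, and many of these predicted loci carry only a Gm number. In PRAISE, reverse transcriptase skips Ψ after a bisulfite and sulfite treatment. The level of a site was therefore taken as the percentage of deletion reads in the chemistry library minus that in the control library.

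By RefSeq class, the 167 genes were 72 snRNA, 47 snoRNA, 6 guide_RNA and 7 long non-coding RNA (lncRNA) genes, and 35 had no match in the gene table used. They held 93, 71, 11, 10 and 52 sites, in this order. Of the 47 snoRNA genes, 46 lay inside another annotated gene, the exception being Gm25133, against 27 of the 72 snRNA genes. Inside means within the span of the other gene, and neither strand nor introns were compared. There was 1 site in 118 genes, 2 sites in 32 and 3 or more in 17. Replicate 1 listed 214 of the sites and replicate 2 listed 208, with 185 in both.

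The median number of chemistry reads per site was 81 in replicate 1 (3 to 17144) and 99 in replicate 2 (2 to 13166). Fewer than 20 chemistry reads stood behind 35 and 29 sites. Deletions were rare without the chemistry, with none at 131 and 137 of the listed sites and a highest control ratio of 3.75% and 4.76%. The sites had been kept by the authors for a low control ratio, so this contrast was partly fixed in advance. Read depth is not read here as the amount of an RNA, because it also depends on how reads matching several copies were assigned. In bulk tissue, fewer cells of a type and less RNA per cell cannot be told apart either.

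Calls were made per replicate. A call required 20 or more reads in each library, a level above 5 points with less than 5% deletion in the control, and a two-sided Fisher exact p below 0.005 for chemistry against control. In replicate 1, 176 of the listed member sites were called, against 86.4% of all listed sites of the table. In replicate 2 the count was 177, against 86.7%. In both replicates 152 member sites in 111 genes were called, 64.1% of the members against 56.7% of the whole table. Since the listed sites had already passed nearly the same rules, the calls mostly restate depth, and of 153 member sites with 20 reads in all libraries only positions 53 to 55 of Gm22973 (5.91% and 10.7%) missed.

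The median level over these 153 sites was 28.1% (interquartile range 14.5% to 54.2%). The other 281 sites of the table with this depth had a median of 25.4%, and the 184 of them in non-coding transcripts 33.5%. The order of the members and the other sites reversed at a minimum of 10 reads (30.98% and 31.7%) and at a level over 10 points (32.3% and 40.2%). Among the members, the 53 snRNA sites had a median of 28.8%, the 50 snoRNA sites 26.8%, the 39 sites of unmatched genes 28.5%, the 6 guide_RNA sites 21.5% and the 5 lncRNA sites 85.2%. Most of the lncRNA sites here lay in Gm39827. These medians are descriptions without a test, because several sites can share a gene and several genes can be copies of another.

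The snRNA class was dominated by a few recurring positions. Rnu6, the gene of U6 snRNA, which forms the catalytic centre of the spliceosome, was listed in the same table at positions 9 to 10, 23, 31 to 32, 40 and 85 to 86. Of the 93 snRNA sites among the members, 62 fell on exactly these 5 positions or runs. They belonged to 53 genes on 18 chromosomes, of which 45 were listed at 1 position and 8 at more. Sequences of these loci were not used here, so the genes are described as predicted snRNA genes at Rnu6 positions. How reads matching several copies were assigned is not given in the sources used here, and a copy may hold reads of Rnu6 or of another copy. No pair of copies had identical read counts.

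Positions 31 to 32 recurred most often, in 23 predicted snRNA genes, of which 12 were called in both replicates. Over copies with at least 20 chemistry reads the level ran from 6.74% to 70% in replicate 1 (median 29.1%, 14 copies) and from 8.64% to 55.4% in replicate 2 (median 22.3%, 12 copies). Rnu6 itself had 46.7% and 41.6% there, so most well covered copies lay below it. The deepest copies were Gm23412 on chromosome 4 (32.7% and 29.2%, 611 and 763 reads) and Gm25412 on chromosome X (30.4% and 27.5%, 595 and 699 reads). Gm22618 on chromosome 5 had 56.4% and 55.4% over 78 and 74 reads. At the low end stood Gm23627, inside Hydin, with 9.84% and 8.64%, and Gm22829 with 11.6% and 11.7%.

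Position 40 was listed in 12 predicted snRNA genes and ran higher than positions 31 to 32. With at least 20 reads, levels were 38.8% to 76.0% in replicate 1 (5 copies) and 31.3% to 69.4% in replicate 2 (9 copies), while Rnu6 had 41.6% and 31.4%. Gm22306 on chromosome 2, the deepest copy, reached 75.5% over 478 reads and 69.4% over 408 reads. Gm25021 on chromosome 6 was the lowest, with 38.8% and 31.3% over 80 and 96 reads, close to the level of Rnu6.

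Positions 9 to 10 were listed in 9 predicted snRNA genes, all of them in both replicates. A spreadsheet had turned this run into a date, which was read back, in most genes without another site to check it against. Levels with at least 20 reads ran from 23.9% to 77.4% in replicate 1 (9 copies) and from 10.7% to 76.0% in replicate 2 (8 copies), against 27.3% and 19.0% in Rnu6. Gm22618 was again high, with 77.4% and 76.0% over 53 and 50 reads, though its control libraries held only 12 and 10 reads and it was not called. Gm22623 was the lowest in both replicates, with 23.9% and 10.7%.

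Positions 85 to 86 were listed in 12 predicted snRNA genes at low depth, with at most 46 and 41 chemistry reads. Copies with 20 reads or more had 25% to 47.8% in replicate 1 (7 copies) and 16.6% to 40.7% in replicate 2 (8 copies), on both sides of the 41.4% and 31.9% of Rnu6. Among called copies the highest by mean level was Gm26454 (47.8% and 31.98%) and the lowest Gm25245 (27.6% and 16.6%). Position 23 was the lowest of the 5. Its copies with at least 20 reads had 5.77% to 9.09% (5 copies) and 6.49% to 6.52% (2 copies), below the 13.9% and 10.6% of Rnu6. The order of the positions within Gm25021, the gene listed at 3 of them, was 23 (6.45% and 6.49%), then 31 to 32 (18.5% and 18.2%), then 40.

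**Figure D1:**
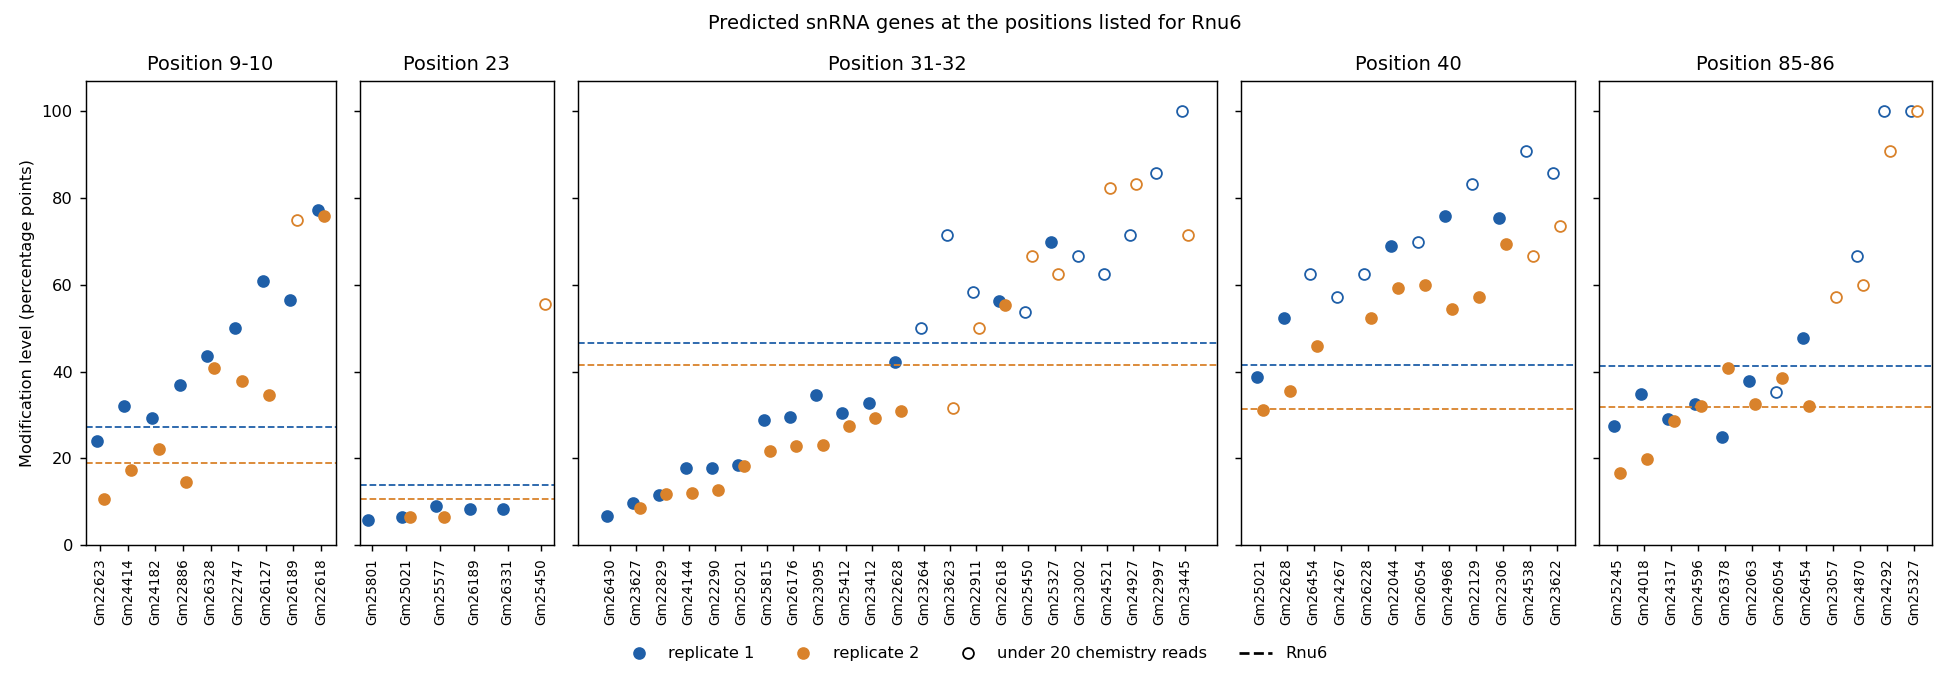
Modification level (percentage points, vertical axis) of each predicted snRNA gene listed at a Rnu6 position, 1 panel per position and 1 column per gene in order of its mean level. Blue and orange points are replicates 1 and 2, open points have under 20 chemistry reads, and dashed lines give Rnu6 in each replicate. At position 40 all 11 copies with both values were lower in replicate 2, and most levels above 60% came from open points.

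At the Rnu6 positions most copies were lower in replicate 2. Of 52 such sites listed in both replicates, 43 were lower in replicate 2 (82.7%), against 51.6% of all sites listed in both. The counts were 11 of 11 at position 40, 8 of 9 at positions 9 to 10, 15 of 19 at positions 31 to 32, 8 of 11 at positions 85 to 86 and 1 of 2 at position 23. With at least 20 reads in all libraries, a setting chosen after seeing the data, 30 of 33 were lower (90.9%). Other predicted snRNA positions were lower in 13 of 25 cases, and members of other classes in 53 of 108 (49.1%). The snRNA sites outside the members were lower in 17 of 24 cases (70.8%). All 5 sites of Rnu6 were among the lower ones, and since copies may share its reads this count is not independent of the above. Both sites of Rnu2-10 were higher in replicate 2.

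Pooling the reads of the copies listed in both replicates summarised this difference, with each copy weighted by its reads in that replicate. At positions 9 to 10 the chemistry deletion ratio was 39.9% in replicate 1 (Wilson 95% interval 36.3% to 43.7%) and 26.8% in replicate 2 (23.8% to 30.0%). At position 40 it was 68.9% (65.6% to 72.1%) and 57.5% (54.2% to 60.8%), and at positions 31 to 32 it was 29.2% (27.7% to 30.8%) and 24.1% (22.8% to 25.5%). At position 40 the share of Gm22306 changed, from 478 of 763 reads in replicate 1 to 408 of 861 in replicate 2. This copy itself had 75.5% and 69.4%, so the pooled difference there also holds a change in weights. At positions 85 to 86 the intervals overlapped, with 36.6% (30.9% to 42.6%) and 33.1% (27.9% to 38.7%). All 5 sites of Rnu6 were also lower in replicate 2, but since copies may share its reads this is not independent of the above. Intervals cover counting error only and not the changed weights of the copies, and the cause of the difference was not tested.

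Whether a copy differed from the other copies at its position was tested at positions or runs listed in at least 3 member genes. The two-sided Fisher exact test set the chemistry reads of 1 copy against the summed reads of the other copies with at least 20 reads, with Benjamini-Hochberg adjustment. Of 61 copies tested in both replicates, 23 differed in the same direction in both (37.7%, which is also the background, as no other sites were tested). Of these, 11 were higher and 12 lower. The calls at a position are not separate findings, because each copy is also part of the sum that the others are set against. Some higher copies, named below, had so few reads that only a ratio above the other copies could have passed. Compared only with copies of the same class, a setting chosen after seeing the data, 17 of 51 differed, 14 of them among the 23. In that setting Gm22270 and Gm23442 at position 85 were set only against each other, so the same difference was counted for each. The test covers read sampling alone.

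Among the predicted snRNA genes at positions 31 to 32, Gm22618 was 31.1 and 34.3 points above the other copies in replicates 1 and 2 (Fisher exact, adjusted p = 6.71e-08 and 1.64e-09). Gm23412 (8.13 and 9.16 points) and Gm25412 (5.30 and 6.87 points) were above by less, the latter not when set against snRNA copies alone. Gm23627 (-16.8 and -13.6 points), Gm22829 (-14.9 and -10.4 points) and Gm24144 (-8.65 and -10.5 points) were below. Gm23017, an unmatched gene with 5.86% and 6.42% over 290 and 358 reads, was also below (-21.97 and -16.8 points). Copies thus spread from under 10% to over 50% at the same position, beyond the sampling error of their reads.

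At position 40, Gm22306 stood 59.5 and 43.2 points above the others (Fisher exact, adjusted p = 1.02e-115 and 3.27e-47), and Gm22044 36.3 and 19.97 points above. The others there included snoRNA genes at low levels. Against snRNA copies alone Gm22306 was still 23.3 and 24.3 points higher, whereas the call of Gm22044 was lost (0.86 and 2.33 points, Fisher exact, adjusted p = 1 and 0.911), and Gm22628 (52.3% and 35.6%) and Gm25021 fell below. At positions 9 to 10, Gm22618 was 42.6 and 55.4 points above (adjusted p = 1.02e-08 and 9.02e-15 by the same exact test). With 12 and 10 control reads there, the lowest ratio that could pass the p threshold was 45.3% and 48%. The other copies had 34.8% and 20.6%, so the direction of this call was fixed in advance. With Gm22618 in the sum, Gm22623 was below (-13.3 and -13.1 points), as was the unmatched Gm22969 (25.2% and 12.9%, -14.4 and -12.8 points). At positions 31 to 32, where Gm22618 was also called higher, the lowest passing ratio was 7.69% and 9.46%, below the other copies. Gm22618 was further listed at the recurring positions 96 to 97 in replicate 1 alone (20% over 15 reads). At position 23 the unmatched Gm23130 had 70.3% and 71.4% over 50 and 63 reads, 65.0 and 64.9 points above the snRNA copies, and with it in the sum Gm25021 was called lower. The lowest passing ratio of Gm23130, 14% and 20.6%, lay above the 7.03% and 6.5% of those copies, so its direction was also fixed.

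The remaining 31 snRNA sites, in 21 genes, included a group at positions of U2 snRNA, which recognises the branch point of introns. Rnu2-10 was listed at position 89 (22.5% and 25.05%) and positions 91 to 92 (31.98% and 35.6%). Gm25813 on chromosome 8 came close to both, with 21.4% and 24.8% at position 89 and 33.0% and 34.9% at positions 91 to 92. Gm25360 on chromosome 1 had 6.65% and 7.03% at position 89, and 20.7% and 23.6% at positions 91 to 92. Gm22973 on chromosome 12 had 29.6% and 31.2% at positions 91 to 92. Here Gm25813 was above the other copies (9.78 and 8.89 points, Fisher exact, adjusted p = 0.00593 and 0.00797) and Gm25360 below (-11.6 and -10.6 points, adjusted p = 0.00124 and 0.00287 by the same exact test). Unlike at the Rnu6 positions, all 3 copies at positions 91 to 92 were slightly higher in replicate 2, as was Rnu2-10. Positions 53 to 55 recurred in Gm22973, Gm25813 and Gm25939 at 5.69% to 10.7%.

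Gm24265, inside Sirt4, and Gm24407 lay 722 bases apart on chromosome 5 and were listed at the same positions, 70 to 73 and 79. At positions 70 to 73 the levels were 63.9% and 66.9% in Gm24265 (412 and 677 reads) and 63.6% and 65.9% in Gm24407 (405 and 629 reads). At position 79 they were 42.4% and 43.3% in Gm24265 and 42.4% and 36.3% in Gm24407. At position 79 the pair stood closer in replicate 1 than in replicate 2 (replicate 2 Wilson 95% intervals of the chemistry ratio 39.7% to 47.4% in Gm24265 and 32.7% to 40.5% in Gm24407). Neither the differences within the pair nor shared reads were tested. Gm24407 was also listed at positions 4 to 6 (18.7% and 18.4%) and, in replicate 1 alone, at position 59 (5.15%, Wilson 95% interval of the chemistry ratio 3.65% to 7.22%).

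Single snRNA loci reached high levels elsewhere. Gm23502 had 82.3% and 76.6% at position 12, and Gm25541 had 59.6% and 55.1% at positions 82 to 83 over 217 and 193 reads. Position 41, next to the recurring position 40, was listed in Gm22363 (33.3% and 29.8%, 126 and 121 reads), Gm22444 and Gm25810, and all 3 were lower in replicate 2. The lowest called member site was position 58 of Gm25939, with 5.28% and 5.76% (5.52% ± 0.336, SD, n = 2). This gene, inside D230017M19Rik, also had 6.54% and 6.94% at positions 53 to 55 and, in replicate 1 alone, 5.07% at positions 43 to 44.

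Among the snoRNA genes, 12 with 14 sites lay inside Snhg14, the long imprinted host transcript of the Prader-Willi region, whose introns carry tandem arrays of snoRNA genes. In the gene table its span held 206 snoRNA genes. Their sites lay between 59023644 and 59429021 on chromosome 7 (GRCm39), 9 of them listed in both replicates and 7 called. Gm24027 was the best covered gene with several sites, at 39.2% and 39.6% at position 54 (coordinate 59110450, 303 and 392 reads). Its positions 57 (13.7% and 14.4%) and 40 (5.46% and 6.13%) were lower. The same positions recurred in neighbouring genes of the array. Position 54 had 45.5% and 65.2% in Gm26337 over 22 and 23 reads. Position 57 had 11.6% and 8.35% in Gm24862, and 6.25% in replicate 1 alone in Gm24100. Position 40 had 5.08% in replicate 1 alone in Gm26283 over 571 reads. Position 54 was also listed in Gm24495 in replicate 1 alone, with 50% over 6 reads, where the lowest ratio that could pass was 50%. Gm24027 was the only gene of the array listed at more than 1 of these positions, so their order rests on this gene. Depth was poor outside Gm24027, Gm24862 and Gm26283, and at shallow sites only high levels could pass. Gm26502 had 39.5% and 46.9% at positions 28 to 29, and Gm23145 29.1% and 22.2% at positions 54 to 55.

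Rian, the host of the snoRNA array in the imprinted Dlk1-Dio3 region, held Gm26922, with 12.1% and 10.4% at position 29. The stress granule gene G3bp1 held Gm12238, with 56.3% and 52.2% at positions 27 to 30 (54.2% ± 2.84, SD, n = 2).

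Genes that encode ribosomal proteins held several of the snoRNA genes within their span. Rpl17 held Gm26202 and Gm23301, 419 bases apart, with a high and a low site each. Gm26202 had 76.9% and 78.2% at positions 34 to 35 over 1343 and 1620 reads, and 8.37% and 8.54% at positions 28 to 30. Gm23301 had 67.4% and 65.2% at positions 34 to 36 and, in replicate 1 alone, 5.95% at positions 28 to 30. In Rpl5, position 85 of Gm22270 had 92.6% and 89.7% over 27 and 39 reads, and that of Gm26387, listed in replicate 2 alone, 85.7% over 7 reads. Rpl4 held Gm23136, whose position 51 had 84.4% and 55.9% over 32 and 34 reads, a difference that did not pass after adjustment (Fisher exact, adjusted p = 0.215).

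Rpsa held Gm26448, which was listed at 4 positions. Position 53 had 35.6% in each replicate over 721 and 436 reads. Positions 91 to 93 had 14.96% and 15.01%, positions 69 to 70 had 13.6% and 11.003%, and position 144 had 5.92% in replicate 2 alone. The pair in Pabpc4, a gene of a poly(A)-binding protein, shared position 94 at unequal levels, with 13.9% and 23.2% in Gm22154 against 7.38% and 6.37% in Gm25788. Position 94 was also listed in Gm23297, inside Nap1l4, with 29.2% and 19.9%. Gm25788 was below the other copies at this position (-13.2 and -15.9 points, Fisher exact, adjusted p = 2.64e-06 and 3.42e-08), and Gm23297 above (20.8 and 10.7 points).

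At position 85, Gm22270 was 80.9 and 79.4 points above the other genes listed there, and the guide_RNA gene Gm22442 30.6 and 33.7 points above. For Gm22270 the lowest ratio that could pass was 18.5% and 23.1%. The other genes had 11.7% and 10.4%, so the direction of its call was fixed in advance. With Gm22270 in the sum, Gm23442 (5.38% and 7.47%), inside Prrc2a, and the unmatched Gm24451 (6.60% and 6.96%) were below. At position 40, Gm25203, inside Slc24a4 and the annotated Rnu3b-ps3, had 43.4% and 31.4%, whereas the Snhg14 gene Gm24027 was below the other genes (-34.3 and -49.8 points), most of them predicted snRNA genes. Against snoRNA genes alone this call was lost, with -2.67 points in replicate 1 (Fisher exact, adjusted p = 0.262) and -25.3 points in replicate 2 (adjusted p = 0.000105 by the same exact test, against Gm25203 with 35 reads). At position 49, Gm22192, inside Prrc2b, had 35.4% and 38.8%, and the unmatched Gm26293 had 22.97% and 22.96%. At positions 96 to 97 the single called copy was Gm25989, inside Qtrt2, with 59.5% and 66.7%. At positions 26 to 27 the unmatched Gm25091 had 17.3% and 9.84%. A position shared by snoRNA genes inside different genes is a shared number and not a shared sequence, as sequences were not used here.

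In several genes with 3 or more sites 1 position stood above the others. Gm24336, inside Cwf19l1, had 90.9% and 91.6% at positions 16 to 17 over 688 and 459 reads, but 25.7% and 21.1% at positions 132 to 133 and 14.95% and 8.05% at positions 117 to 119. Gm24494, inside Rabggtb, had 71.2% and 73.8% at positions 54 to 56, 38.8% and 48.3% at positions 24 to 25, and 9.61% and 9.02% at position 48. Gm26130, an unmatched gene, had 55.4% and 60.5% at positions 38 to 40 between sites of 8.26% and 10% (positions 21 to 25) and of 13.6% and 12.8% (position 47). Gm22442, inside Chd3, had 40.5% and 44.0% at position 85, 28.2% and 25.4% at positions 102 to 104, 11.1% and 12.6% at positions 26 to 27, and 10.9% and 16.7% at position 80. In each of these genes the highest site was above all others in both replicates.

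Some genes had more than 1 high site or none. Gm37233 had 85.9% and 88.0% at position 39, 80.4% and 76.4% at positions 79 to 80, and 39.4% and 42.9% at positions 58 to 61. Gm25791 had 80.3% and 78.9% at position 83, and 64.0% and 80.5% at positions 90 to 92 over 68 and 41 reads. In its positions 99 to 101 the level was 5.80% in replicate 1 alone. Besides position 40, Gm25203 had 42.3% and 40% at positions 32 to 33, and 26.6% and 24.6% at position 52. Gm26493, inside Cnot1, had 31.8% and 37.5% at positions 39 to 40, 25.4% and 28.2% at position 98, and 16.4% and 27.0% at position 95. Gm23734, inside Mgat5, had 22.2% and 31.2% at position 46, 11.9% and 16.4% at position 83, and 10.3% at positions 86 to 87 in replicate 2 alone.

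**Figure D2:**
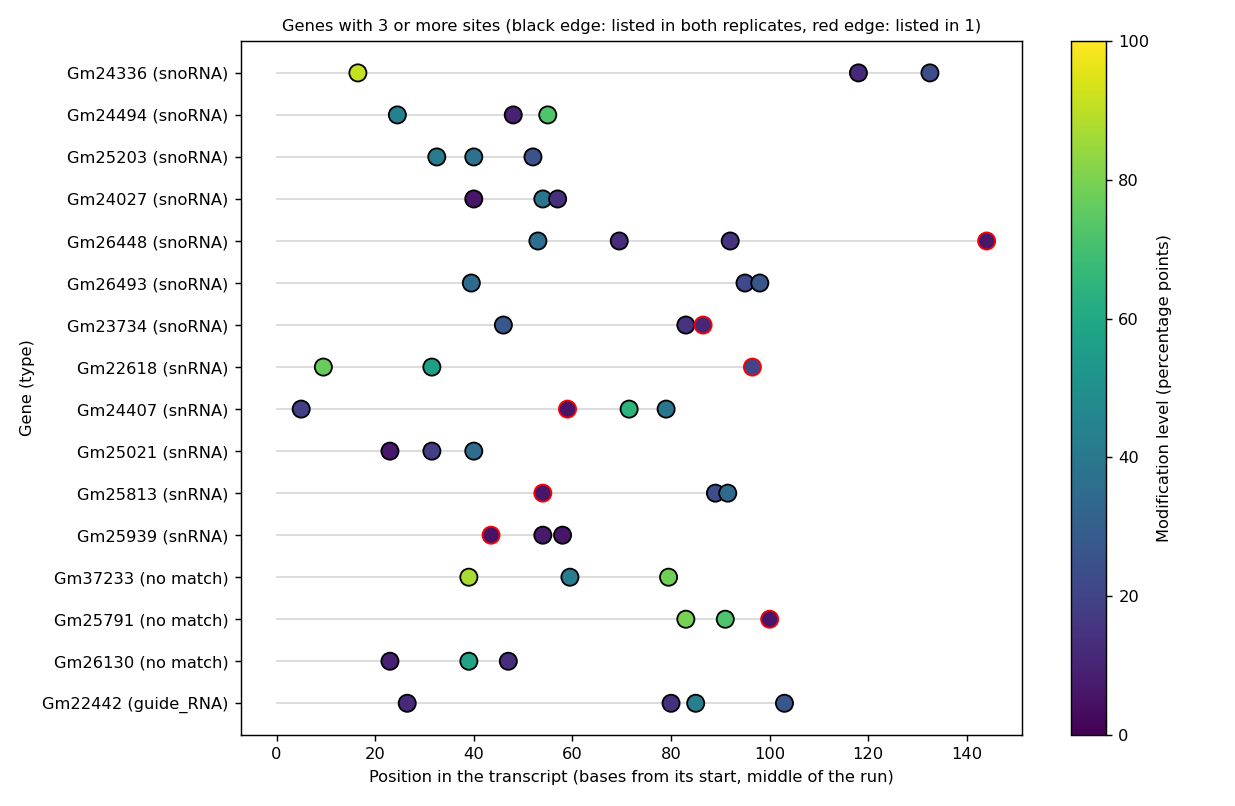
Position in the transcript (bases from its start, horizontal axis) and mean modification level (colour, percentage points) of every site in the genes with 3 or more sites, 1 row per gene with its class. Gm39827 is left out because of its length, and red edges mark sites listed in 1 replicate, whose colour is that value. Gm24336 has 1 site above 90% and 2 below 26%, and Gm37233 has 2 sites above 75%.

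Several unmatched genes lay close together. Gm22744, Gm24452, Gm24453 and Gm25894 fell within 824 bases of chromosome 19, with 28.7% and 36.3% at position 28 of Gm22744, 22.2% and 32.01% at positions 43 to 45 of Gm25894, and under 10% in the others. On chromosome 1, Gm22357 and Gm25789 lay 2212 bases apart. Gm22357 had 36.6% and 36.4% at position 27 over 2109 and 2325 reads, and Gm25789 had 25.9% and 25.8% at positions 27 to 28 and 56.1% and 54.9% at positions 44 to 45. Position 67 of Gm22357 had 19.5% and 22.2%, and at all 4 sites of this pair the replicates differed by less than 3 points.

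The lncRNA class had the highest median level and the widest range of depth. Most of the 5 sites behind that median lay in Gm39827, whose positions 762 to 763 gave its value of 85.2%. The others, in Gm41421 and Gm24105, were lower, so the median speaks for Gm39827 rather than for the class. Of its 7 genes, 4 with 7 of the 10 sites hold annotated tRNA genes within their span. tRNAs carry Ψ at several conserved positions, and whether the reads came from the lncRNA or from a tRNA was not tested. Gm39827, on chromosome 11, contains n-TEctc10 and n-TLcaa3. It had 89.8% and 88.1% at position 898 (coordinate 58193062, GRCm39) over 3630 and 6282 reads, and 86.7% and 86.3% at positions 938 to 939 (58193021) over 9031 and 13166 reads. Its positions 762 to 763 had 85.5% and 84.97%, and position 695 had 100% and 61.5% over only 4 and 13 reads. Gm41421 had 63.3% and 61.9% at positions 872 to 873. Gm11335 and Gm32420 rested on 3 to 31 reads. Gm24105, which holds no tRNA gene in the table, had the most chemistry reads of any member site, 17144 and 12628, and a level of 7.69% and 7.92% (7.81% ± 0.167, SD, n = 2) at position 227. Gm38426 and Gm52047 were listed in replicate 2 alone over 10 and 2 reads.

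The highest called sites by mean level, in Gm23991, Gm24616, Gm24336 and Gm22270, came from unmatched and snoRNA genes. Position 898 of the lncRNA gene Gm39827 (88.98%) and position 39 of Gm37233 (86.9%) followed, ahead of position 16 of Gm26079 (85.6%). Positions 67 to 69 of Gm23991 had 93.7% and 98.0% (Wilson 95% intervals of the chemistry ratio 84.8% to 97.5% and 89.5% to 99.6%), while position 47 of this gene had 19.0% and 15.7%. Positions 16 to 18 of Gm24616 had 93.7% and 89.96% and its position 111 had 10.6% and 7.35%. Position 16 of Gm26079 had 86.3% and 84.8% over 781 and 516 reads, and its positions 101 to 103 had 6.42% in replicate 2 alone. Gm23991, Gm24616 and Gm26079, like Gm24336, thus each combined a site above 80% with a site below 25%.

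The guide_RNA class was small. Gm25492, inside Bud23, had 15.1% and 17.5% at positions 14 to 15 over 993 and 716 reads. Gm23119 had 37.8% and 57.5% at positions 41 to 44, a difference that did not pass after adjustment (Fisher exact, adjusted p = 0.291). Gm22767, Gm25443 and Gm25820 were listed in 1 replicate each, with 7.46% to 18.5%.

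Between replicates, 154 member sites had at least 20 chemistry reads in each and were tested by a two-sided Fisher exact test, adjusted over 441 sites of the table. Only positions 9 to 10 of Gm22886, a predicted snRNA gene at a Rnu6 position, differed (36.9% and 14.6% over 68 and 105 reads, Fisher exact, adjusted p = 0.0464), against 2.27% of all tested sites. This call was lost when sites of 10 reads or more entered the adjustment. At an unadjusted p under 0.05 there were 16 member sites, 12 of them lower in replicate 2 and 8 of them predicted snRNA sites. The next in order were also at positions 9 to 10, Gm22623 (adjusted p = 0.0903 by the same exact test), Gm26127 (60.8% and 34.6%, adjusted p = 0.102) and Gm22969 (adjusted p = 0.115). The SD of the difference between replicates was 7.55 points over the 153 well covered member sites and 5.01 points over the 281 other sites of that depth. Over all listed sites, shallow ones included, the members had fewer chemistry reads, a median of 81 and 99 against 164 and 168 in the rest of the table. The depth of the sites behind the 2 SDs was not compared.

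**Figure D3:**
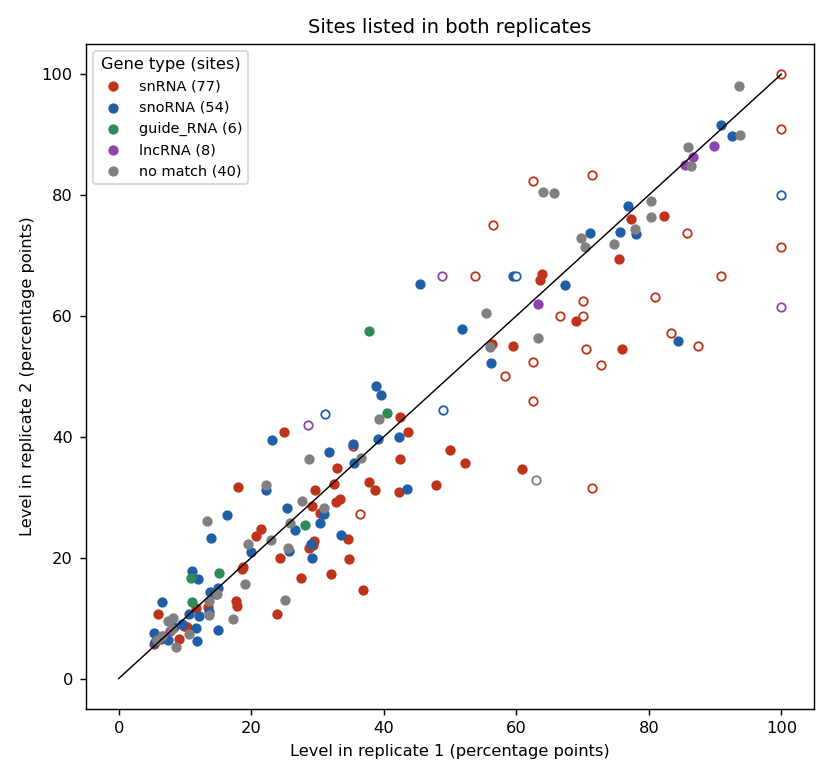
Level in replicate 1 (horizontal axis) against replicate 2 (vertical axis), in percentage points, for the 185 member sites listed in both, coloured by class. Open points have under 20 chemistry reads in at least 1 replicate and the line marks equal levels. Among the snRNA sites 56 of 77 lie below the line, and lncRNA sites with full depth lie close to it.

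Listed levels were lower at deeper sites. In replicate 1 the median level was 62.5% at sites with under 20 chemistry reads (35 sites), 37.8% at 20 to 50 (37 sites), 26.2% at 50 to 200 (78 sites) and 21.8% from 200 on (64 sites). In replicate 2 it was 66.7%, 40%, 23.04% and 22.8% (29, 43, 73 and 63 sites). The lowest ratio that could pass the p and level limits of the calls, with no control deletion, was worked out at the reads of each site. It fell alongside, from a median of 27.3% to 5.11% in replicate 1 and from 36.4% to 5.11% in replicate 2. It is not exactly the authors' listing limit, as position 44 of Gm22192 was listed in replicate 2 at 6.58% against 7.24%. In replicate 1, 51 sites lay within 1.5 times that lowest ratio, and 47 in replicate 2. Spearman's rank correlation of level and reads was -0.37 over 214 sites and -0.39 over 208, given as a description because the sites share libraries and genes. At shallow sites only high levels could thus pass these limits. Member sites above 75% with at least 400 chemistry reads in both replicates lay in Gm39827, Gm24336, Gm26079 and Gm26202.

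**Figure D4:**
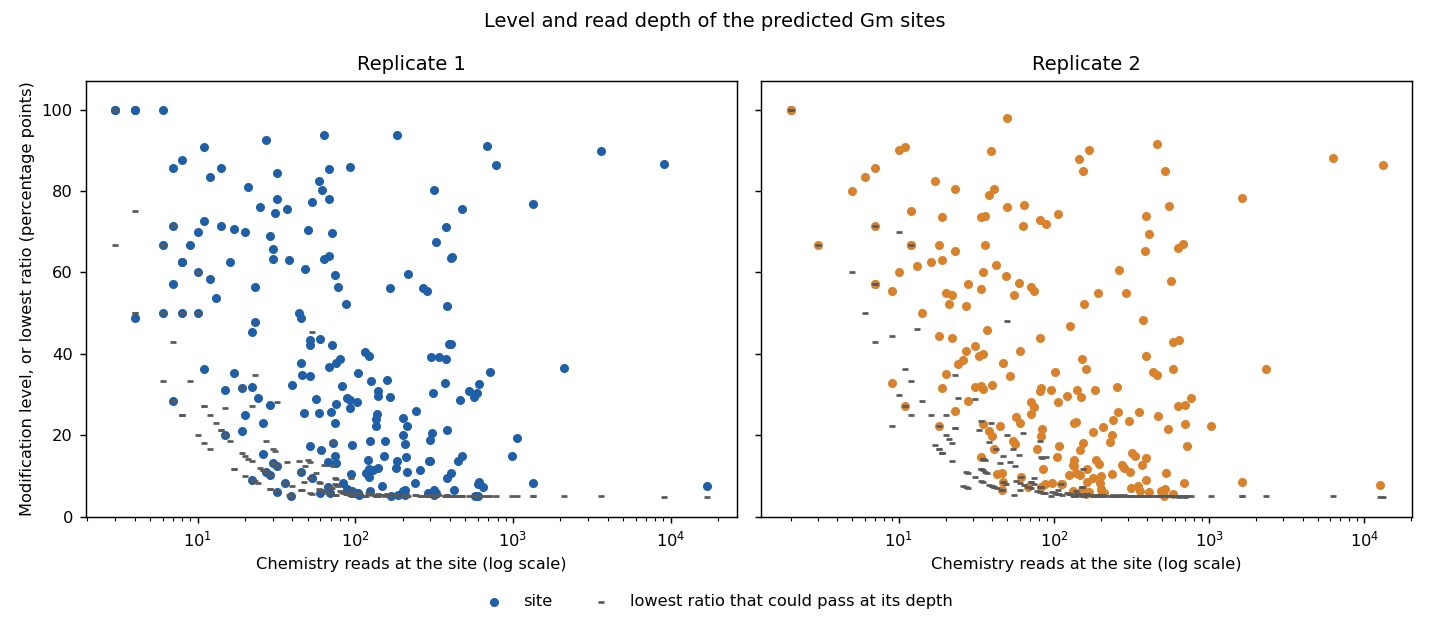
Modification level (percentage points) against chemistry reads (log scale) of each member site in replicate 1 (left) and replicate 2 (right). Grey dashes give the lowest deletion ratio that would pass the p and level limits of the calls with the reads of that site and no control deletion. No listed site under 20 reads was below 20% in replicate 1 or 22.2% in replicate 2.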

How the data were processed

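PRAISE libraries with and without the chemistry were made by the study from 2 untreated cochlear samples. The authors removed ribosomal RNA, trimmed read 2, collapsed duplicates, cut off molecular identifiers, thinned the libraries and aligned to RefSeq transcripts of GRCm39 with PRAISE-tool. The submitters' processing notes name cutadapt 4.2 and UMI-tools 1.0.0. For every site and library the authors deposited raw counts of all reads and of reads with a deletion. The deposited deletion ratios and levels were a fraction of reads, and each deposited p-value compares chemistry with control reads in a contingency table. Sites were listed per replicate only where they passed the authors' rules, and a level elsewhere is unknown. For a run of positions 1 level covers the run, and which uridine was modified is not known. A spreadsheet had turned 12 member runs into dates, which were read back as month and day; 3 had another site in their transcript to check against, and all 3 coordinates matched. No unused column of per-sample values was present.

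Levels were recomputed from the counts. Tests were two-sided Fisher exact tests, with Benjamini-Hochberg adjustment at 0.05 over the whole table for replicates and over all copy tests, and were tested on simulated data. Wilson 95% intervals cover counting error only. Gene classes and the genes that contain or neighbour a member came from a RefSeq table of GRCm38.p6, matched by transcript or symbol for 132 of 167 genes, and coordinates printed are those of the deposited table (GRCm39). A genome and transcript sequences were not used here, so the planned grouping of the genes by sequence was not made and no sequence is shown. Named were all sites of genes with at least 3 sites, the highest and lowest called copy and each differing copy at recurring positions, the 10 highest and 5 lowest called sites, sites that differed between replicates, the 5 of most reads, and NR transcripts. Other sites were picked with their values in view. The members and lists were chosen with earlier results of these data known. Python 3.11.15, NumPy 2.4.6, SciPy 1.17.1, pandas 2.3.3 and matplotlib 3.10.9 were used.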

Additional observations from a re-analysis of the deposited data

How the results depend on the processing

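Calls in both replicates (152 member sites) numbered 170 at a minimum of 10 reads, 116 at 50 reads, 127 at a level over 10 points, 153 with adjusted p-values, and 176 to 177 with either replicate alone. The count of copies that differed (23) was 30 at 10 reads and 20 at 50 reads. Either replicate alone gave 31 to 38, with fewer conditions to pass. Runs sharing at least 1 position gave 80 of 131 copies, 22 of them shared with the 23. This setting tests more copies and also changes what each is compared with. The single site that differed between replicates was lost at 10 reads (0 sites). The median level of the members (28.1%) was 30.98% at 10 reads, 25.7% at 50 reads, 32.3% over 10 points, 31.5% with the highest site of each gene, and 27.5% to 29.3% with either replicate alone. That of the other sites (25.4%) was 31.7% at 10 reads, 22.5% at 50 reads, 40.2% over 10 points and 24.1% to 24.5% with either replicate alone. Members were above the other sites at 20 and 50 reads and below them at 10 reads and over 10 points, so no order is read from these medians. Without subtraction of the control ratio, 75 of 85 named levels stayed within the SD of the replicates. Leaving out a replicate moved 2 of them by over 1.5 times, those of Gm22886 (a factor of up to 1.76) and Gm22623 (1.62) at positions 9 to 10, and the cause was not tested. No paired analysis was possible because there were values for untreated samples alone. The alternatives for grouping by sequence were not run without sequences. Depth limits the copies at Rnu6 positions, of which 33 of 62 sites were called.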

Other observations

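Replicate 1 was the single source of 29 member sites, and replicate 2 of 23. An unlisted site is not a site at 0, as its reads there were not analysed here. A few members lay far inside long unmatched transcripts, and all were shallow, Gm53845 (50% at positions 10412 to 10413, 10 reads, replicate 1), Gm53696 (57.1% at positions 11533 to 11535, 7 reads, replicate 2) and Gm53539 (10.6% at position 25735, 43 reads, replicate 2).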
